A study of Mus musculus with 16 samples.

Results

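The genes described here make cholesterol and fatty acids, move sterols within and out of cells, and set the rate of both pathways. The 39 genes were chosen by known function (enzymes of sterol and fatty acid synthesis, regulators of the transcription factors SREBP, and sterol carriers), with earlier results of these data known. Of these, 38 were measured among 18194 genes with a probe set of their own. The remaining gene, Soat1, which esterifies cholesterol for storage, is not analysed here because no probe set carried its symbol alone.

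RNA came from the caput epididymis, the head of the duct in which sperm mature, and from the efferent ducts, which join the testis to it, of adult male 129BL/6 mice. The mice had been sham operated or castrated, and 14 days later sham mice received vehicle, while castrated mice received vehicle, 0.015 mg of testosterone propionate or 0.015 mg of estradiol, each in 100 µL of 10% ethanol in sesame oil. Tissue was taken 12 hours after that injection, and each of the 8 combinations of tissue and group had 2 one-colour arrays, 16 in all. Sham mice kept their testes and received no hormone, and both hormone groups lacked testes. The labels do not say whether a pair of arrays came from separate animals or pools, so p-values measure only the spread between these arrays, and their number limits the precision. Values are linear intensities, each array scaled to 1 common level, and levels are compared between arrays for 1 gene, never between genes. Differences are log2 values from limma with Benjamini-Hochberg adjustment over all 18194 genes, "rose", "fell" and "called" mark an adjusted p under 0.05, and ± gives the standard error of a difference.

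Cholesterol is built from acetyl-CoA through mevalonate to isoprenoid units, which are joined to squalene, closed to lanosterol and trimmed to cholesterol. When sterol in the endoplasmic reticulum is low, the escort protein Scap carries SREBP to the Golgi, where it is cut free to switch on these enzymes, and Insig proteins hold it back when sterol is plentiful. Fatty acid synthesis starts from the same acetyl-CoA, made from citrate by Acly. The caput epithelium depends on androgen and other factors from the testis, and sperm change the sterol and polyunsaturated fatty acid makeup of their membranes while they pass through the epididymis.

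The 38 members were above background, the highest of 27 Bacillus control probe sets on an array, on all 8 caput arrays, and 36 were on all 8 efferent duct arrays. The exceptions in the duct were Fdps, above background on 6 arrays, and Mvd, on 7. Marker genes in sham mice went with the tissue labels as sums, though not gene by gene. Caput principal cell genes, 6 of 7 measured, summed to 49753 and 49816 on the caput arrays and 5361 and 8572 on the duct arrays. Nonciliated efferent duct genes, 5 of 5, summed to 1054 and 1070 and then 6045 and 5841. Lcn8, a caput gene, read 9350 and 8970 on the caput arrays and 15.5 and 1126 on the duct arrays. Duct replicate 2 thus carried more of it. Spink10, another caput gene, read 2478 and 2578 in the caput and 2535 and 2052 in the duct. Adam7 read 8643 and 8372 and then 1381 and 1484. The endocytic receptor gene Lrp2, a nonciliated duct gene, read 81.4 and 67 and then 1205 and 1024, and Aqp1 370 and 464 and then 497 and 513. In the duct, the 4 vehicle arrays had a 3' over 5' actin ratio of 3.11 to 3.87 (log2) and the 4 hormone arrays 0.91 to 1.93, and their highest intensities were 14456 to 19967 and 3218 to 4517. Duct comparisons between castrated vehicle and hormone cross these array sets, and hormone and array set cannot be told apart there. The duct RNA was amplified with the Ovation system and the caput RNA labelled with the One-Cycle kit, so tissue and kit changed together.

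Promoters are shown for 4 sterol genes with the smallest adjusted p after castration in the caput among genes with a RefSeq entry: Nsdhl, which also rose with testosterone, Tm7sf2, Msmo1 and Idi1. Each line gives the 250 bases before the gene start on the gene's own strand, from RefSeq in build GRCm38.p6, and capitals mark CCAAT or its reverse complement ATTGG, the core that the factor NF-Y binds and that lies beside many SREBP sites.
Nsdhl, chrX:72918271-72918520, plus strand: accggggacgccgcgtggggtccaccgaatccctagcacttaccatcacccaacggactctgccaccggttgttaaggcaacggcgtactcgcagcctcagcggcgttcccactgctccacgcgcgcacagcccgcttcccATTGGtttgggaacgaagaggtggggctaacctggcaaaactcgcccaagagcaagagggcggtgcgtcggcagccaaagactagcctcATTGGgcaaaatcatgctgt
Tm7sf2, chr19:6067851-6068100, minus strand: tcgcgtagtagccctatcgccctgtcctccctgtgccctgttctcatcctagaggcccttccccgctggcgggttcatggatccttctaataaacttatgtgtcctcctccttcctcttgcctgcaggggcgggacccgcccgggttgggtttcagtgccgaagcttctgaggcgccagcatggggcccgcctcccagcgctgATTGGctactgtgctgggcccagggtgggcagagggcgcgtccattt
Msmo1, chr8:64733579-64733828, minus strand: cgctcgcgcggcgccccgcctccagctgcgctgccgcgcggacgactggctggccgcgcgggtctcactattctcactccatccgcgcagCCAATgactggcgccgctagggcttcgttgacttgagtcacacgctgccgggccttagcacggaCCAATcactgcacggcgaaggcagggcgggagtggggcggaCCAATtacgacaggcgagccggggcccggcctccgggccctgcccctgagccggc
Idi1, chr13:8885356-8885605, plus strand: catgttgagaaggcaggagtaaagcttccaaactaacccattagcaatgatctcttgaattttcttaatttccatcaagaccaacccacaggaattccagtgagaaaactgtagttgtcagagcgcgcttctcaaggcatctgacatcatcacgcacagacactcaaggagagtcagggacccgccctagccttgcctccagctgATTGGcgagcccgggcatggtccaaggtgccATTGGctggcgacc

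Matches began 109 and 20 bases before the start of Nsdhl, 47 before that of Tm7sf2, 160, 96 and 55 before that of Msmo1, and 45 and 14 before that of Idi1. RefSeq promoters were found for 30 of the 39 members, 37 windows in all. CCAAT on either strand was in 25 of these 37 windows (67.6%), against 33.8% of 32851 mouse windows of the same length. It was in 11 of the 15 windows (73.3%) of members that fell after castration in the caput, and in 14 of 22 windows (63.6%) of the other members. The classical sterol regulatory element TCACNCCAC was in 1 window, that of Hmgcs1, the enzyme that makes HMG-CoA (2.70% against 1.05% of all windows), and the E-box form TCACGTG was in 4 (10.8% against 3.13%), those of Insig1, Sc5d, Hsd17b7 and Elovl5. None of the 3 motifs contains another, and a match describes letters only.

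The caput of castrated mice had much lower levels of sterol synthesis genes than that of sham mice. Of the 38 members 18 fell and 1 rose, a median difference of -0.81 for the members and 0.06 for all genes. Over all genes 14.0% were called, 6.12% lower and 7.90% higher. The members were chosen with earlier results of these data known, so the counts and shares describe this list only. Both castrated arrays lay below both sham arrays for 29 members, against 27.6% of all genes, and above them for 4, against 35.1%. The falls lay mostly in the cholesterol pathway, with 4 of 6 early mevalonate genes and 9 of 11 genes from squalene to cholesterol, but 1 of 4 SREBP regulators, 1 of 6 fatty acid synthesis genes and 3 of 6 desaturases and elongases. In whole tissue, fewer cells of a type and less RNA per cell cannot be told apart.

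**Figure D1:**
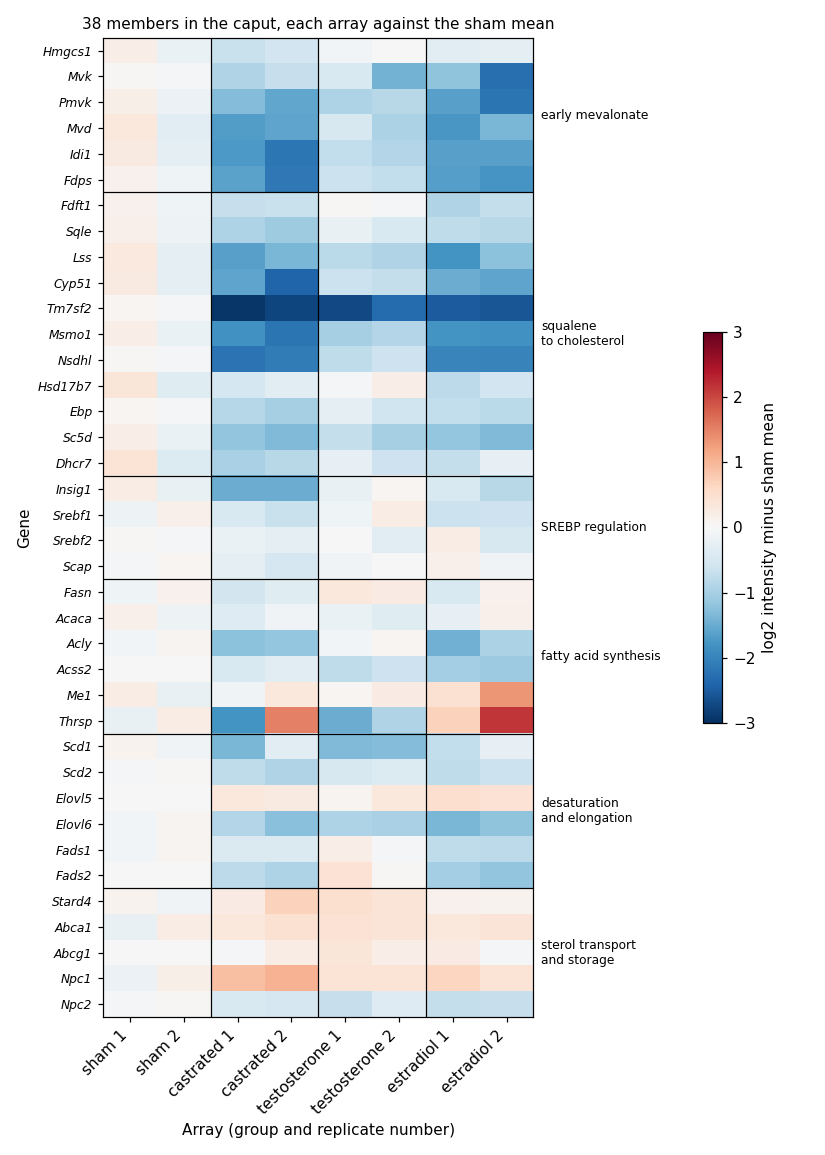
Heat map of the 38 members (rows, in 6 role groups) on the 8 caput arrays (columns, 2 per group), coloured by log2 intensity minus the mean of both sham arrays. Blue dominates the sterol rows on the castrated and estradiol arrays, with Tm7sf2 lowest at a castrated minus sham difference of -2.84, is paler on the testosterone arrays, and gives way to red for Npc1.

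In the early mevalonate part, Idi1, the isomerase that activates isoprenoid units, read 744 and 504 on the sham arrays and 186 and 137 on the castrated arrays, a 3.84-fold fall (log2 -1.94 ± 0.25, adjusted p = 0.0129). Fdps, which joins those units to farnesyl diphosphate, read 1440 and 1215 in sham and 435 and 300.2 after castration (3.66-fold, -1.87 ± 0.21, adjusted p = 0.0104). Neither gene's groups overlapped, although sham replicate 1 was the higher of the pair for both. Mvd, the decarboxylase, went from 121 and 78.9 to 30.5 and 32.4 (3.11-fold, adjusted p = 0.0254), and Pmvk, the kinase before it, from 439 and 346 to 158 and 132 (2.70-fold, adjusted p = 0.0229). The kinase Mvk, at 97 and 91.9 in sham and 50.9 and 58.4 after castration, and Hmgcs1, at 1941 and 1465 and then 1061 and 1131, were lower on both castrated arrays without passing the test (adjusted p = 0.305 and 0.0664).

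The steps from squalene to cholesterol held the widest differences. Tm7sf2, a sterol C14 reductase of the endoplasmic reticulum, read 502 and 458 on the sham arrays and 63.4 and 70.9 on the castrated arrays, a 7.15-fold fall (-2.84 ± 0.17, adjusted p = 0.00301). Nsdhl, the dehydrogenase that removes the C4 methyl groups together with Msmo1, read 1392 and 1334 in sham and 292 and 319.7 after castration, 4.46-fold (-2.16 ± 0.12, adjusted p = 0.00289). Msmo1 itself, the C4 methyl oxidase, read 1299 and 973 and then 321 and 246 (-2.00 ± 0.20, adjusted p = 0.00891). Of the 19 members called after castration, these 3 still passed whichever of the 4 sham and castrated arrays was left out, in fits whose spread came from all caput groups. With the spread taken from those 4 arrays alone they missed the threshold (adjusted p = 0.0518 for Tm7sf2, 0.0518 for Nsdhl and 0.0664 for Msmo1).

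Cyp51, the lanosterol demethylase, fell 3.97-fold, from 686 and 475 to 191 and 109 (adjusted p = 0.0209). Lss, which closes squalene epoxide to lanosterol, went from 315 and 208 to 83.2 and 98.1 (2.83-fold, adjusted p = 0.0303). Sqle, the squalene epoxidase, went from 762 and 614 to 362 and 325 (2.00-fold, adjusted p = 0.0219). All of these were lower on both castrated arrays, as were 10 of the 11 genes of the stretch. The other calls were Sc5d, the C5 desaturase (2.38-fold, adjusted p = 0.0192), Ebp, the sterol isomerase (1.91-fold, adjusted p = 0.0209), and Fdft1, the squalene synthase that commits farnesyl units to sterols (1.60-fold, adjusted p = 0.0381). Dhcr7, the last reductase, read 74.8 and 41.8 in sham and 28.5 and 31.1 after castration and missed the threshold (adjusted p = 0.138), and Hsd17b7, a sterol ketoreductase, overlapped between groups at 232 and 141 against 125 and 146.

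Among the regulators, Insig1, both a brake on SREBP and one of its target genes, fell 2.80-fold, from 423 and 312 to 129 and 129.9 (-1.49 ± 0.22, adjusted p = 0.018). The genes of the SREBP proteins were not called: Srebf1 read 993 and 1223 in sham and 808 and 695 after castration (adjusted p = 0.113), and Srebf2, the form best known for sterol genes, read 346 and 325 and then 292 and 274, a difference of -0.25 with a 95% interval from -0.91 to 0.42. Scap read 500.3 and 536 and then 423 and 362 (adjusted p = 0.139). All 4 were lower on both castrated arrays, by amounts that passed the test for Insig1 alone.

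Of 6 fatty acid synthesis genes 1 fell. Acly, which makes cytosolic acetyl-CoA for both pathways, fell 2.30-fold, from 2881 and 3254 to 1295 and 1369 (-1.20 ± 0.19, adjusted p = 0.0209). The enzymes that use acetyl-CoA for fatty acids were not called: Acaca, which makes malonyl-CoA, read 216 and 172 in sham and 147 and 179.7 after castration, and Fasn, the synthase, read 1069 and 1276 and then 798 and 909 (adjusted p = 0.253). Acss2, which makes acetyl-CoA from acetate, read 181 and 176 and then 130.1 and 142 (adjusted p = 0.089).

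Of the enzymes that shape fatty acids, Elovl6, which lengthens palmitate, fell 2.08-fold, from 1585 and 1782 to 919.7 and 708 (adjusted p = 0.0209). Fads2, the first desaturase of polyunsaturated fatty acid synthesis, fell 1.81-fold, from 987 and 1018 to 579 and 529 (adjusted p = 0.0348), and Scd2, a stearoyl-CoA desaturase, fell 1.78-fold, from 5005 and 5252 to 3028 and 2727 (adjusted p = 0.0172). Fads1, the partner of Fads2, went from 1476 and 1670 to 1159 and 1160 (adjusted p = 0.0983). Elovl5, which lengthens polyunsaturated chains, lay higher on both castrated arrays, at 731 and 699 against 588 and 578, without a call.

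Of 5 sterol carriers 1 rose and none was called lower. Npc1, which exports cholesterol from lysosomes, rose 1.96-fold, from 69 and 87.5 to 146 and 159 (0.97 ± 0.17, adjusted p = 0.0239), while its soluble partner Npc2 read 5846 and 6086 in sham and 4359 and 4223 after castration (adjusted p = 0.0818). The efflux pump Abca1 read 1489 and 2016 and then 2165 and 2362 (adjusted p = 0.205), its relative Abcg1 read 171 and 167 and then 166 and 197, and Stard4, a cytosolic sterol carrier, read 371 and 320.1 and then 409.8 and 553 (adjusted p = 0.152). Npc1 and Npc2 thus lay on opposite sides of their sham levels, with groups that did not overlap in either case.

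Fits with 1 array left out had fewer arrays for every gene, and no called member changed direction in them. Counts of all genes called in those fits are not given here. The number of members called after castration was lower in each of those fits. It was 3 without sham replicate 1, 5 without sham replicate 2, 7 without castrated replicate 1 and 4 without castrated replicate 2, against 19 with all. With only the arrays compared in the fit, no member was called in this or any other caput comparison. All 19 other probe sets of the called genes that were above background went the same way. Probe sets that can bind related transcripts served Mvd, Fdft1, Hsd17b7, Acly and Elovl5, so those levels may include relatives.

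**Figure D2:**
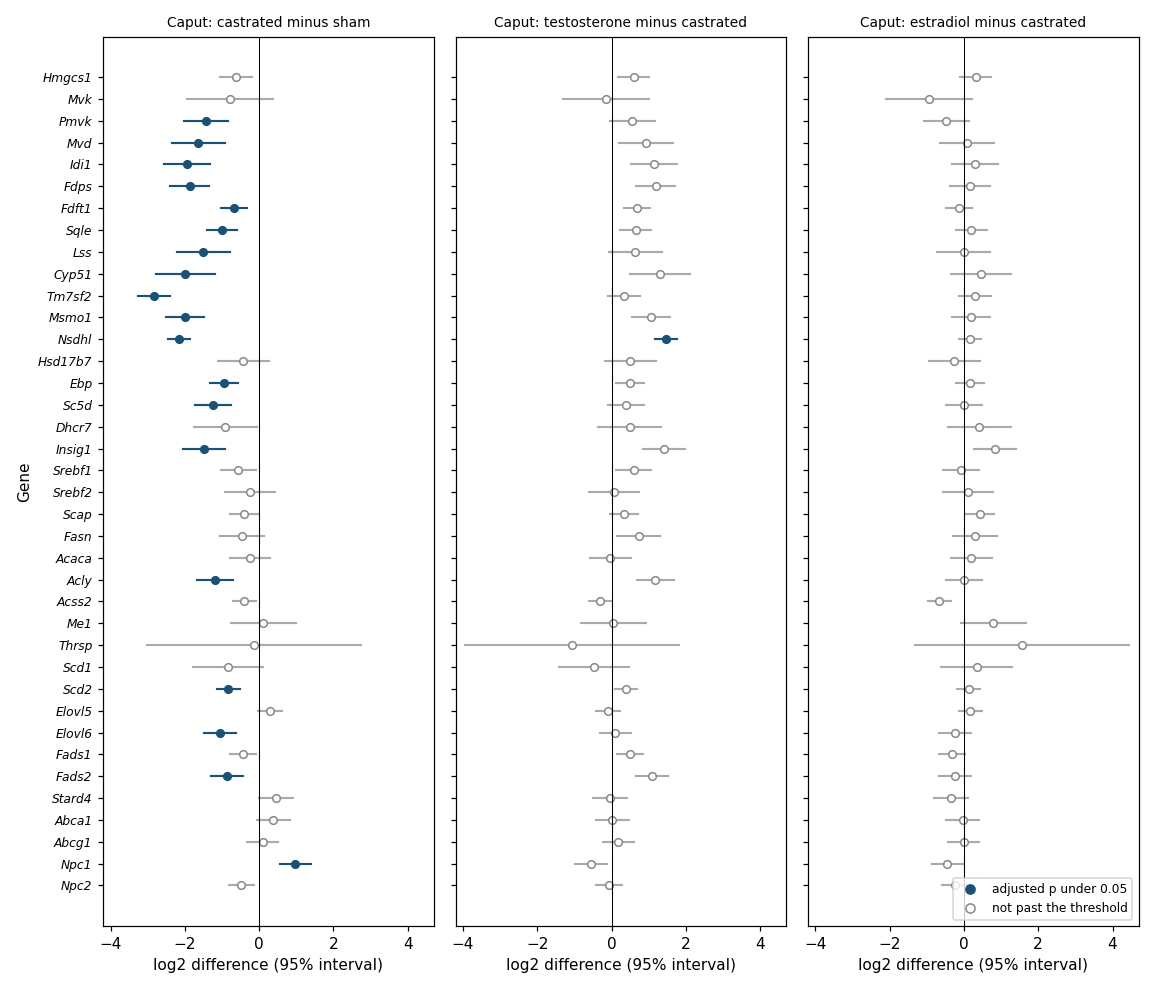
Log2 differences in the caput (horizontal axis, point with 95% interval from limma) for the 38 members (vertical axis) between castrated and sham, testosterone and castrated, and estradiol and castrated, with filled points for an adjusted p under 0.05. The left panel has 19 filled points, 18 of them below 0, the middle panel has Nsdhl at 1.47, and the right panel has none.

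After castration the caput arrays also differed in markers of other cells, and the part of these differences in the results was not tested. Summed over 8 of 8 sperm and germ cell genes, intensity was 7230 and 1741 on the sham arrays and 115 and 101 on the castrated arrays, so sham replicate 1 carried more of these transcripts than replicate 2. Over 3 of 5 Leydig cell genes the sums were 194 and 188 in sham and 66.8 and 72.2 after castration. Star, 1 of these 3, did not go with the sum, at 23.3 and 20.7 and then 24 and 20.8. Principal cell genes, 6 of 7 measured, summed to 49753 and 49816 in sham and to 5955 and 5731 after castration, and clear cell genes, 4 of 4, to 408 and 402 and then 889.9 and 789.7. Macrophage genes, 9 of 9 measured, summed to 2383 and 2373 and then 2813 and 3006, with 7 genes higher and 2 lower. Of these 9, 2 were called, both higher.

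A single dose of testosterone propionate raised 1 member above the castrated level within 12 hours at the threshold used. Nsdhl rose 2.76-fold, from 292 and 319.7 to 808 and 881 (1.47 ± 0.12, adjusted p = 0.0147), and stayed below its sham readings of 1392 and 1334. Over all genes 1.67% were called, 1.02% higher and 0.649% lower. Both testosterone arrays lay above both castrated arrays for 24 members, against 23.2% of all genes, and below them for 2, Acss2 and Npc1, against 29.4%. The median difference was 0.49 for the members and -0.05 for all genes. This comparison shares the castrated arrays with the one above, so the values are set side by side only.

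Members just short of the threshold came from several roles. Insig1 read 312 and 379 with testosterone, against 129 and 129.9 in castrated mice and 423 and 312 in sham (1.41 ± 0.22, adjusted p = 0.0543). Fads2 read 1344 and 1023 against 579 and 529 (1.08 ± 0.17, adjusted p = 0.0543), and Acly 2882 and 3172 against 1295 and 1369 (1.18 ± 0.19, adjusted p = 0.0572). These 3 genes reached the range of the sham arrays, or in Fads2 passed it.

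Other sterol genes lay between castrated and sham levels. Fdps read 845 and 798 with testosterone (adjusted p = 0.0678), Msmo1 568 and 613 (adjusted p = 0.0762), Idi1 369.6 and 333 (adjusted p = 0.0964) and Cyp51 365 and 346 (adjusted p = 0.119), each above both castrated arrays and below both sham arrays. Fdft1, at 1528 and 1468, was within its sham range of 1372 to 1624. Tm7sf2, which had fallen most, read 73.9 and 96.7, against 63.4 and 70.9 in castrated mice (0.33, 95% interval -0.10 to 0.77). Elovl6, at 878 and 858, overlapped the castrated arrays.

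The count of 1 depended on the fit. Without the 40% dimmest genes 13 members were higher and 1, Npc1, was lower. With an intensity trend in the variance prior 15 were higher. Shares of all genes called in the alternative fits, here and below, are not given, so these counts do not set the members apart. With any 1 of the 4 arrays left out, or with replicate numbers fitted as blocks, no member passed.

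No member was called between estradiol and castrated vehicle in the caput, and none of the 18194 genes was (0%), while 4 members and 2637 genes had an unadjusted p under 0.05. Nsdhl read 344 and 342 (0.17, 95% interval -0.13 to 0.46), Tm7sf2 85.5 and 80.5, Fdps 419.9 and 388 and Fads2 496 and 441. Insig1 read 263 and 202, above both castrated arrays (0.83 ± 0.22, adjusted p = 0.221), and Acss2, the member nearest to the threshold, read 87.5 and 84.3 against 130.1 and 142 (-0.66 ± 0.12, adjusted p = 0.130). Without the 40% dimmest genes Acss2 was the 1 member called.

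Testosterone and estradiol differed directly, in arrays whose levels took no part in the castration difference. The spread behind the standard errors and adjusted p-values came from all caput groups, the sham and castrated arrays among them. These p-values were therefore not independent of the castration comparison. With only the testosterone and estradiol arrays in the fit, no member was called. Nsdhl was 2.46-fold higher with testosterone (1.30 ± 0.12, adjusted p = 0.0183) and Fads2 2.51-fold higher (1.33 ± 0.17, adjusted p = 0.0365). Over all genes 2.12% were called, 1.12% higher with testosterone and 1.00% lower. Both testosterone arrays exceeded both estradiol arrays for 26 of the 38 members, and for 17 of the 18 members that had fallen after castration, against 20.6% of all genes. The exception was Tm7sf2, at 73.9 and 96.7 with testosterone and 85.5 and 80.5 with estradiol.

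The next members in order of adjusted p were Acly, 2.27-fold higher with testosterone (2882 and 3172 against 1131 and 1573, adjusted p = 0.0549), Fads1 (1800 and 1510 against 928 and 914, adjusted p = 0.0562) and Fdft1 (1528 and 1468 against 793 and 907, adjusted p = 0.0613). Each set of arrays was separate from the other. The 4 members Me1, Thrsp, Scd1 and Elovl5 were lower on both testosterone arrays, against 27.9% of all genes, and none of them was called. The count of 2 depended on the fit: 10 members were called, all higher with testosterone, without the 40% dimmest genes and also with an intensity trend, and none with any 1 of the 4 arrays left out or with replicate numbers fitted as blocks.

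**Figure D3:**
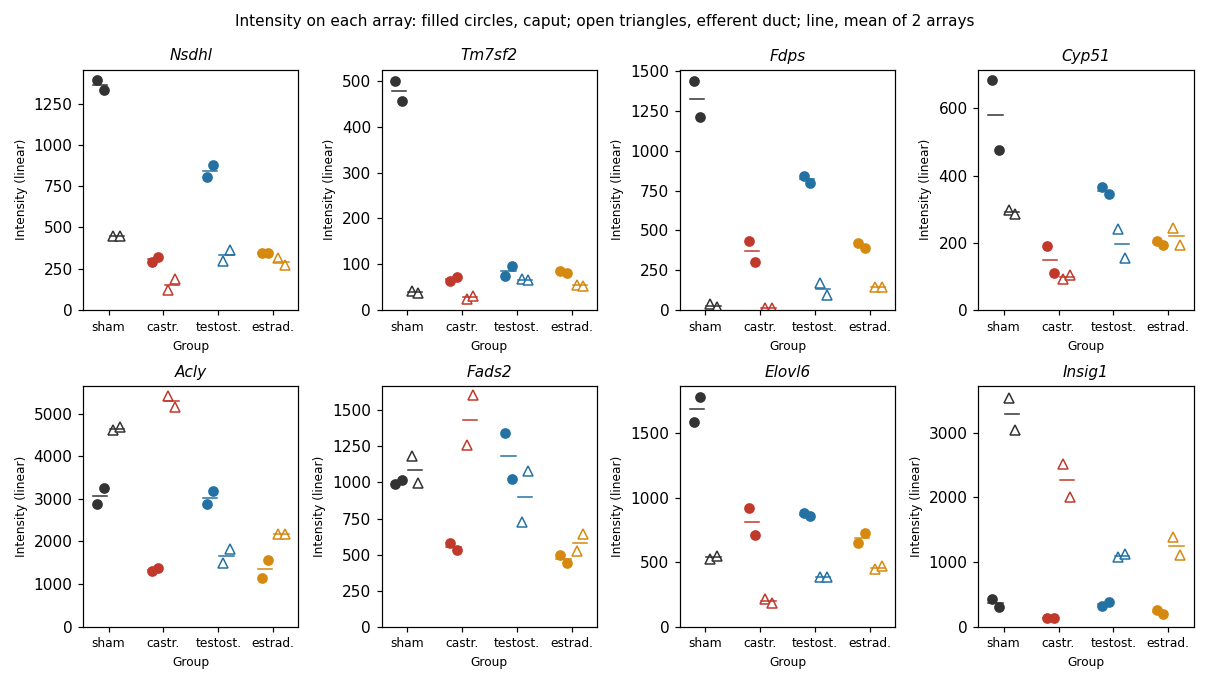
Linear intensity (vertical axis, from 0) of 8 members by group, with filled circles for the caput, open triangles for the efferent duct and a line at the mean of 2 arrays. In the caput, Nsdhl, Fdps, Cyp51, Acly, Fads2 and Insig1 are lower after castration and lie higher with testosterone than with estradiol, whereas Tm7sf2 stays low with either hormone (73.9 to 96.7 against 458 and 502 in sham).

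Against sham, 4 members were still lower 12 hours after testosterone. Tm7sf2 was 5.67-fold lower (-2.50 ± 0.17, adjusted p = 0.00835), Elovl6 1.94-fold (adjusted p = 0.0364), Acss2 1.62-fold, at 105 and 116 against 181 and 176 (adjusted p = 0.0341), and Nsdhl 1.61-fold (adjusted p = 0.0328). Over all genes 9.16% were called, 4.51% lower and 4.65% higher. A further probe set each of Elovl6 and Acss2 went the opposite way. Without the 40% dimmest genes, or with an intensity trend, 14 members were lower, and with the replicate block 1 was. Only Tm7sf2 passed in any fit with 1 array left out, those without testosterone replicate 1 and replicate 2, and it did not pass without either sham array.

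After estradiol 20 members were lower than in sham and none was called higher, against 17.2% of all genes called, 7.26% lower and 9.99% higher. They were 4 mevalonate genes and 9 genes from squalene to cholesterol, with Tm7sf2 at 5.78-fold (adjusted p = 0.00393), Nsdhl at 3.97-fold (adjusted p = 0.00328) and Pmvk at 3.75-fold (125 and 86 against 439 and 346, adjusted p = 0.0109). The others were Acly, Scd2, Elovl6, Fads2, Acss2 (2.08-fold, adjusted p = 0.00912), Fads1 (1.71-fold, adjusted p = 0.0238) and Npc2 (3610 and 3671 against 5846 and 6086, 1.64-fold, adjusted p = 0.0286). A further probe set of Acss2 went the opposite way here too. This comparison and that of castrated mice share the sham arrays. The count fell to 3 without sham replicate 1, 8 without sham replicate 2, 6 without estradiol replicate 1 and 9 without estradiol replicate 2.

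In the castrated and estradiol groups of the caput, some lipogenic members varied between replicates together with fat cell markers. Thrsp, a lipogenic regulator of fat and liver, read 22.2 and 219 on the castrated arrays and 123 and 340.1 with estradiol, against 65.3 and 90.3 in sham and 27.3 and 40.8 with testosterone. The sums of 6 of 8 adipocyte genes on the same arrays were 534 and 2846, 2037 and 4085, 1111 and 815, and 1064 and 896. Thrsp was lowest where that sum was lowest and highest where it was highest. Within sham and within testosterone Thrsp went the other way, higher on the replicate with the smaller sum. The fat hormone gene Adipoq, itself 1 of the 6 genes summed, read 53.4 on castrated replicate 1 and 682 on estradiol replicate 2.

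Me1, which makes NADPH for lipid synthesis, reached 258 on estradiol replicate 2 and lay between 88.4 and 142 on the other 7 caput arrays. Scd1 read 1457 and 1278 in sham, 529 and 1101 after castration, 545 and 554 with testosterone and 819 and 1150 with estradiol, so it was highest in sham, and among the 6 arrays of castrated mice highest where the fat sum was largest. Fasn read 1282 on estradiol replicate 2 and 846 on replicate 1. Its highest caput readings were 1444 and 1379 with testosterone, where the fat sum was only 1064 and 896. No fat cell gene measured was at 0. The leptin gene Lep, at 2.45 to 19.5, was above background only on castrated replicate 2 and estradiol replicate 2. The part of fat tissue in these members was not tested.

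**Figure D4:**
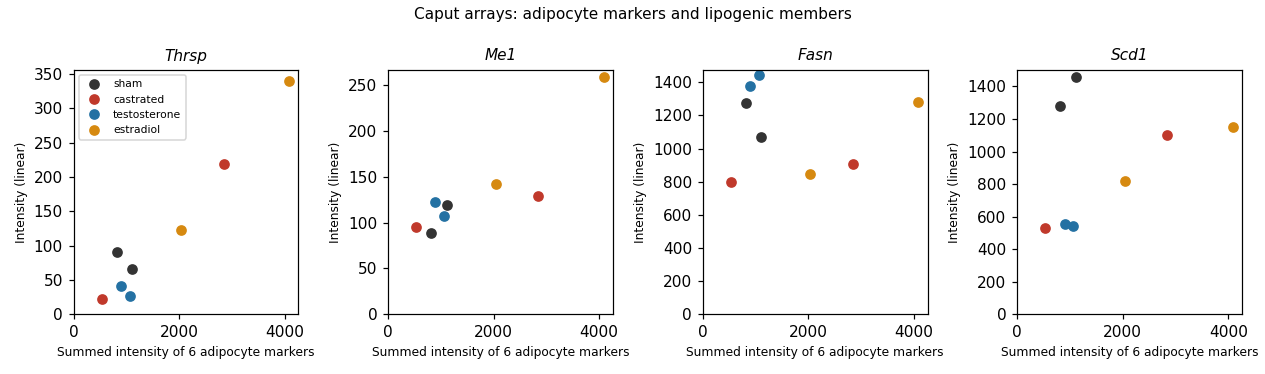
Linear intensity of Thrsp, Me1, Fasn and Scd1 (vertical axes, from 0) against the summed linear intensity of 6 adipocyte marker genes (horizontal axis, from 0) on the 8 caput arrays, coloured by group. Thrsp is highest, at 340.1, on the array with the largest sum, 4085, whereas Scd1 is highest on the sham arrays, where the sum is 1111 and 815.

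In the efferent duct no member passed the test after castration, although sterol genes such as Nsdhl and Cyp51 were lower on both castrated arrays. Over all genes 0.291% were called, 0.176% lower and 0.115% higher, and 13 members and 2879 genes had an unadjusted p under 0.05. Both castrated arrays lay below both sham arrays for 21 members, against 23.0% of all genes, and above them for 7, against 24.5%. Without the 40% dimmest genes 8 members were called lower and 1, Thrsp, higher, and with an intensity trend 7 were lower and 1 higher. Shares of all genes called in these fits are not given.

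Nsdhl read 450.3 and 445 in duct sham arrays and 120.2 and 185 after castration (-1.59, 95% interval -2.24 to -0.93, adjusted p = 0.0914). Cyp51 read 298 and 287 and then 93.2 and 105 (-1.56, adjusted p = 0.0985), Msmo1 161 and 175 and then 74.5 and 68.9 (-1.23, adjusted p = 0.110), and Idi1 160.4 and 162 and then 74.2 and 64.5 (-1.22, adjusted p = 0.127). The groups were separate for each of these 4. Fdps was below background on both castrated arrays, at 8.95 and 9.71, against 34.4 and 20.7 in sham, which puts sham at least 2.31-fold higher (adjusted p = 0.160). Here and below, "at least" sets a group's mean against the background level of the arrays that were under it.

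Elovl6 came nearest to the threshold, at 528 and 548 in sham and 213 and 183 after castration (-1.45 ± 0.17, adjusted p = 0.0527). Npc2 read 2798 and 2944 and then 1579 and 1017 (adjusted p = 0.127). On the other side, Thrsp read 210.4 and 240.3 and then 1262 and 536 (1.87 ± 0.41, adjusted p = 0.131), Abca1 687 and 762 and then 1019 and 1173, and Abcg1 151 and 125 and then 219.8 and 297. Adipocyte gene sums on these arrays were 9374 and 8093 in sham and 9285 and 11552 after castration, and caput principal cell genes summed to 5361 and 8572 and then 128 and 36.2. The part of these cells in the sterol values was not tested.

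The change after castration differed between the tissues for 2 members. Tm7sf2 went from 42 and 36.6 in duct sham to 24.1 and 30.3 after castration, so its difference was 2.30 ± 0.24 less negative than in the caput (adjusted p = 0.00332). Background on the duct castrated arrays was 13.2 and 10.1, so a fall as wide as in the caput would have gone under it. Acly read 4605 and 4686 in duct sham and 5421 and 5164 after castration, against its fall in the caput, an interaction of 1.39 ± 0.25 (adjusted p = 0.0237). Over all genes 3.23% were called, 1.27% with a higher value in the duct and 1.96% with a lower one. Tm7sf2 passed with each of the 8 arrays left out in turn, and Acly in 3 of these fits. Neither passed with replicate numbers fitted as blocks or with only the arrays compared, and Acly did not pass with quantile normalization or with the mean of all probe sets. For Nsdhl, Cyp51, Idi1 and Fdps the tissue difference was not called. Tissue and labelling kit cannot be told apart in this comparison.

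**Figure D5:**
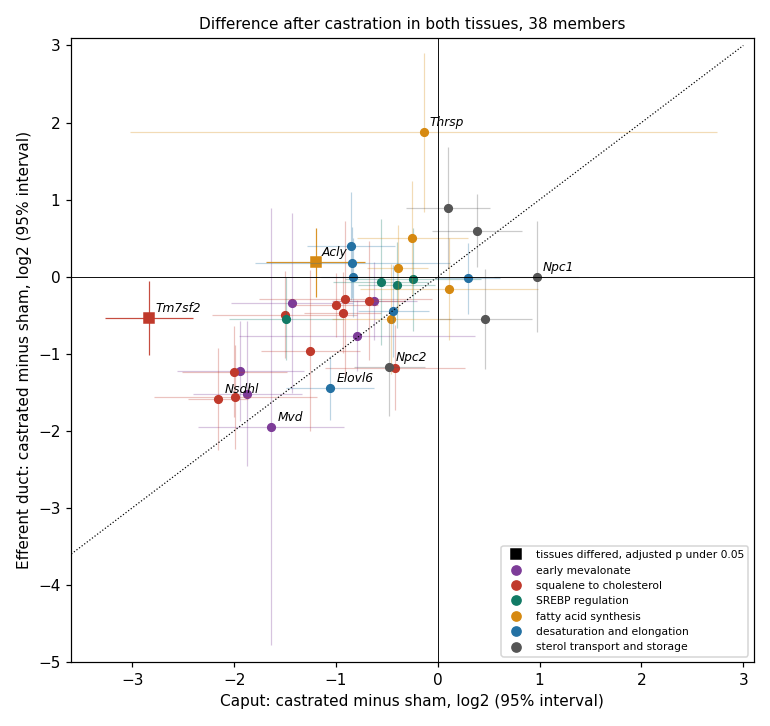
Castrated minus sham difference (log2, with 95% intervals) in the caput (horizontal axis) and in the efferent duct (vertical axis) for the 38 members, coloured by role, with the line of equality dotted and squares for the 2 members whose tissues differed at an adjusted p under 0.05. Tm7sf2, at -2.84 in the caput and -0.54 in the duct, and Acly, at -1.20 and 0.19, lie above the line.

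Between testosterone and estradiol in the duct, which share 1 array set, no member and none of the 18194 genes was called (0%), while 5 members and 1467 genes had an unadjusted p under 0.05. All 6 fatty acid synthesis genes were lower on both testosterone arrays, as 20.4% of all genes were. Acaca read 347 and 326 with testosterone and 1105 and 624 with estradiol (-1.30 ± 0.29, adjusted p = 0.338), Fasn 699 and 1099 against 2109 and 1607 (-1.07 ± 0.29, adjusted p = 0.433), and Me1 469 and 545 against 1377 and 861 (-1.11 ± 0.26, adjusted p = 0.382). Fads1 was the reverse, at 655 and 638 against 281 and 384 (0.98 ± 0.24, adjusted p = 0.392). Nsdhl read 298 and 363 and then 314 and 272, and its duct minus caput difference in the testosterone minus estradiol contrast was -1.13 ± 0.28 (adjusted p = 0.241). No member was called in that difference between tissues, and 0.0495% of all genes were, 0.0330% higher and 0.0165% lower. Adipocyte sums were 8841 and 8691 with testosterone and 11627 and 8953 with estradiol, and their part was not tested.

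Against castrated vehicle, 15 members were called higher and 6 lower in the duct with testosterone, and 14 higher and 8 lower with estradiol. These shares stood beside 23.2% of all genes called higher and 12.3% lower with testosterone (35.5% in all), and 20.0% and 10.7% with estradiol (30.7% in all). Fdps was at least 10.7-fold higher with testosterone, at 166 and 91.5, and at least 12.3-fold with estradiol, at 143 and 141. Fasn was 3.64-fold and 7.64-fold higher (adjusted p = 0.00858 and 0.00677), and Sc5d 5.95-fold and 8.25-fold. Elovl5, Acly, Scd2, Scd1, Hmgcs1 and Insig1 were called lower with both hormones. For Sc5d, Acly, Scd1 and Hmgcs1, at least 1 other probe set above background went the opposite way with both hormones. The same held for Scd2 with estradiol.

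These duct differences cannot be told apart from the change of array set. Of the other probe sets of called genes, 10 of 23 went the opposite way with testosterone and 10 of 25 with estradiol. Quantile normalization, which moved the median of all genes from 0.23 to -0.03 and from 0.25 to -0.04, gave 8 members called with testosterone and 11 with estradiol. Of these, 5 and 7 were among the calls above, and Hsd17b7, Stard4 and Npc2 were called with testosterone, and Me1, Thrsp, Stard4 and Npc2 with estradiol, under that setting and not above. Scd1 changed sign under it. Without estradiol replicate 1 no member was called, and without testosterone replicate 1 the count was 12.

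Markers of other cells differed between the same duct arrays, and their part in the members' values was not tested. Of 9 macrophage genes 7 were called higher and none lower with either hormone (median 1.90 with testosterone and 2.07 with estradiol), and of 5 ciliated cell genes 3 were called higher and 1 lower with either. Summed macrophage intensity was 4706 and 3110 on the castrated arrays, 7611 and 5199 with testosterone and 8102 and 5312 with estradiol. Adipocyte genes went both ways. Of the 6 measured, 3 were called higher and 2 lower with testosterone, and 4 higher and 1 lower with estradiol. The lipid droplet gene Cidec read 82.9 and 159 on the castrated arrays and 1138 and 653 with testosterone, whereas the fatty acid binding protein gene Fabp4 read 4830 and 6701 and then 2428 and 2802. The adipocyte sums on the castrated arrays were 9285 and 11552, beside the 8841 and 8691 with testosterone and the 11627 and 8953 with estradiol given above.

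Beyond the members, 53 of 62 other genes of sterol and fatty acid handling were measured. In the caput 3 of the 53 rose after castration and 4 fell, near the 7.90% and 6.12% of all genes, so the count does not set these genes apart. Mylip, the ligase that marks the LDL receptor for degradation, rose 2.74-fold, from 463 and 522 to 1342 and 1352 (adjusted p = 0.00683), and the sterol carrier gene Stard5 and the glucose-sensing factor gene Mlxip rose 1.59-fold and 1.67-fold. Scarb1, the HDL receptor that takes up cholesterol esters, fell 1.92-fold, from 721 and 661 to 385 and 336 (adjusted p = 0.0211), and stayed low with testosterone at 254 and 232.

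The steepest falls among these genes were in the elongases of very long polyunsaturated chains. Elovl4 fell 6.87-fold, from 331 and 259 to 45.1 and 40.2 (adjusted p = 0.00539), and read 28.7 and 27.2 with testosterone. Elovl2 fell 5.29-fold, from 297 and 339 to 64.3 and 55.9 (adjusted p = 0.0132), and rose 4.50-fold with testosterone, to 287 and 254 (adjusted p = 0.0478). It was 5.90-fold higher with testosterone than with estradiol, at 62.2 and 33.6 (adjusted p = 0.0321). Mlxipl, the carbohydrate response factor of lipogenesis, fell 2.16-fold, from 154 and 185 to 77 and 79.2 (adjusted p = 0.0155), and rose 2.33-fold with testosterone, to 192 and 172 (adjusted p = 0.0409).

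Across all 12 comparisons 30 of the 38 measured members were called at least once and 8 were not: Dhcr7, Srebf1, Srebf2, Me1, Thrsp, Stard4, Abca1 and Abcg1. In the caput 16 members had no call. The count of 30 includes the duct comparisons of testosterone and estradiol with castrated vehicle, where 35.5% and 30.7% of all genes were called. No share of all genes called at least once was taken, so these counts do not set the members apart. Of those never called, the one nearest to the threshold was Stard4, lower with estradiol than in castrated mice in the duct (85.4 and 72.4 against 145 and 141, adjusted p = 0.0566), then Me1 (adjusted p = 0.0571, higher with estradiol in the duct), Srebf1 (adjusted p = 0.0774, estradiol against sham in the caput) and Dhcr7 (adjusted p = 0.138).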

How the data were processed

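Intensity of 45101 probe sets was compared over 16 one-colour Affymetrix arrays, 2 per group in each tissue. The deposited values are linear intensity, and the submitters' processing notes name RMA with no version. They were not log2 values as RMA gives: each array had a mean of 125 after 2% of probe sets were trimmed at each end. The genome build and filters are not given in the sources used here. Probe sets with exactly 1 symbol in the platform annotation (34958; 932 had several and 9211 none) gave 18194 genes, and for 9012 genes with several probe sets the brightest over all arrays was kept. Log2 was taken without a pseudocount or filter. Linear models in limma (version 3.58.1, R 4.3.3) covered the 8 arrays and 4 groups of a tissue, or all 16 arrays for differences between tissues. Values of p were adjusted by Benjamini and Hochberg over all genes. Groups are those of the labels. Simulated data with known changes served to test the fit.

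The members and the lists of other pathway genes, markers and motifs were chosen with earlier results of these data known. Every member is accounted for. Members past the threshold are named, those never called are given by count with the nearest to the threshold per role, and promoters are printed for at most 4 members by the castration and testosterone results. Background on an array was 2.33 to 14.3. Symbols of 30 members matched RefSeq promoters of GRCm38.p6. Alternatives were a fit without the 40% dimmest genes, an intensity trend, quantile normalization, a gene's probe sets averaged, the replicate number as a block, only the arrays compared, and each array left out. Same-numbered arrays deviated from their group means with correlations of -0.05 to 0.07, so the numbers were not taken to pair arrays. Such correlations cannot exclude pairing, because spread between arrays can hide it. Tables were made in Python 3.11.15 with pandas 2.3.3, and plots with matplotlib 3.10.9.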

Additional observations from a re-analysis of the deposited data

Results flagged for a closer look

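The castration effect of 2 members differed between efferent duct and caput in the limma model over 16 arrays. For Tm7sf2 the duct minus caput difference was 2.30 on the log2 scale (adjusted p = 0.00332), with both castrated arrays below both sham arrays in each tissue. Its duct sham level was too near background for a fall as wide as in the caput to be read. For Acly it was 1.39 (adjusted p = 0.0237), with both castrated arrays below both sham arrays in the caput and above them in the duct. Neither call held with replicate numbers fitted as blocks or with only the arrays compared. Tissue and labelling kit cannot be told apart. Each group had 2 arrays, so no array could be set apart from its group by a test.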

How the results depend on the processing

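Counts below are of members called. They stand without the share of all genes called in the same fit, so they do not show whether members changed more than other genes. With 1 array left out they ranged from 3 to 7 for castration in the caput (19 with all), 0 to 0 for testosterone against castrated (1) and against estradiol (2) there, 0 to 1 for testosterone against sham (4), 3 to 9 for estradiol against sham (20), 0 to 1 for castration in the duct (0), 12 to 17 for duct testosterone against castrated (21), 0 to 15 for duct estradiol against castrated (22) and 1 to 4 for the tissue difference after castration (2). Without the 40% dimmest genes, or with an intensity trend, the counts were 14 and 15 for caput testosterone against castrated, 1 and 2 for estradiol against castrated, 10 and 10 for testosterone against estradiol, 14 and 14 for testosterone against sham, 9 and 8 for duct castration, and 4 and 6 for the tissue difference after castration. That of testosterone minus estradiol gave 1 and 1, and duct testosterone against estradiol gave 2 with the trend. With the mean of all probe sets they were 2 for caput testosterone against castrated, 13 and 12 for duct testosterone and estradiol against castrated, and 1 for the tissue difference after castration. Quantile normalization gave 8 and 11 for both duct hormone comparisons. With only the arrays compared, the counts were 0 for caput castration, testosterone against castrated, estradiol and sham, estradiol against sham and the tissue difference after castration, and 7 and 10 for the duct hormone comparisons.

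The low correlations between same-numbered arrays did not show pairing, and they cannot exclude it. With the replicate block the counts were 0 for caput testosterone against castrated and against estradiol, 1 for testosterone against sham and 0 for the tissue difference after castration, while caput castration gave 15. Single differences changed sign in 8 cases. With the mean of all probe sets, Fdps became 0.12 for castration and 0.31 for estradiol against sham in the caput, where its other probe set was below background. In the duct, Idi1 became -0.043 with testosterone and Hmgcs1 0.35 with estradiol, and Scd1 became 0.13 and 1.08. With quantile normalization Scd1 became 0.086 and 0.27. Apart from the fewer arrays or genes in a fit, the cause of these changes was not tested. Levels near background, such as Fdps in the duct, bound a fold rather than measure it.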
